A study of Mus musculus with 64 samples.

Results

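The genes described here are 104 protein-coding genes that were silent in untreated mouse embryonic stem cells and gave reads once RPB1, the largest subunit of RNA polymerase II (Pol II), had been degraded. A gene belonged to the set where it lay on an autosome, had 2 or fewer counts summed over all 26 untreated libraries, and had 20 or more counts summed over the 2 libraries of RPB1-depleted cells. Hox genes were to be left out, and 0 of them met the other conditions. Of 20743 autosomal protein-coding genes without Hox genes (55335 genes of all kinds were in the table), 4747 were silent by this measure, and the 104 are 2.19% of these.

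V6.5 mouse embryonic stem cells, grown with the GSK3 inhibitor CHIR99021 and the MEK inhibitor PD0325901, carried an auxin-inducible degron on 1 of the 12 Pol II subunits, RPB1 to RPB12, or were wild type (WT). Doxycycline for 12 h (2 µg/ml in the sample protocol, 1 µg/ml in the series text) induced OsTir1, the plant receptor that recognises the tag, and indole-3-acetic acid (IAA) at 500 µM then triggered degradation. WT and each line were sequenced untreated and after 12 h of IAA from poly(A) RNA, and RPB1, RPB3 and RPB6 also at 0 h and 1 h of IAA, with 2 libraries in each of 32 groups and Drosophila S2 cells added at 10%. The labels do not say whether WT cells carried OsTir1, whether a line is 1 clone, which library type the 0 h and 1 h samples had, or whether paired libraries of a group are independent cultures. A p-value therefore reflects the variation among these libraries alone, and that variation may be technical.

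Pol II transcribes the mRNA of nuclear genes, and its 12 subunits take part in the catalytic core, in the assembly of the enzyme or in contacts with other factors. Genes of other tissues are kept silent in stem cells by missing activators, by closed chromatin and by marks such as H3K27me3. A silent gene can lie among active genes or in a domain where all genes are silent, as most olfactory receptor clusters do, and the read count of a gene does not show where its transcript began.

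The promoters of 4 members are shown for their range of base composition: Duoxa2 and Adipoq had the highest level per length in RPB1-depleted cells, Slfn14 the most counts there, and Zc3h12d the most counts in another line. Each run holds the 250 bases before and the 50 bases from the start of the gene, on the strand of the gene, from RefSeq on GRCm38.p6, with CpG dinucleotides in capitals. They lie at chr2:122298650-122298949 (Duoxa2, plus strand), chr16:23146286-23146585 (Adipoq, plus), chr11:83286677-83286976 (Slfn14, minus) and chr10:7832220-7832519 (Zc3h12d, plus).
Duoxa2: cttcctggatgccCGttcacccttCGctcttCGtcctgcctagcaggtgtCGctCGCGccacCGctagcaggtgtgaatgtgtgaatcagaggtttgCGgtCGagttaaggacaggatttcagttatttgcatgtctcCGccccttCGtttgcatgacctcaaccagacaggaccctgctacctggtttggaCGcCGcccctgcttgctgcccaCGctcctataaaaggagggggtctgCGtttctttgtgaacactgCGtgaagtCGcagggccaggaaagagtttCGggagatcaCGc
Adipoq: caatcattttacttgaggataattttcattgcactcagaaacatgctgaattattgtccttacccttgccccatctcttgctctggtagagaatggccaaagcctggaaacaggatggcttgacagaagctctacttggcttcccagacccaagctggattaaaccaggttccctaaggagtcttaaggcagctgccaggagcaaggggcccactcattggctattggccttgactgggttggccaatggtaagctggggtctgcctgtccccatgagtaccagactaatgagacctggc
Slfn14: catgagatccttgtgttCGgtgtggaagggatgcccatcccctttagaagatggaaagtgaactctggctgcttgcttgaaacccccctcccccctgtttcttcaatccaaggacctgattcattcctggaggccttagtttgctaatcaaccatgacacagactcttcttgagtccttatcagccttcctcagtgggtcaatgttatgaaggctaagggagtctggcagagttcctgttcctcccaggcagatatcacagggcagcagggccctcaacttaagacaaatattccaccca
Zc3h12d: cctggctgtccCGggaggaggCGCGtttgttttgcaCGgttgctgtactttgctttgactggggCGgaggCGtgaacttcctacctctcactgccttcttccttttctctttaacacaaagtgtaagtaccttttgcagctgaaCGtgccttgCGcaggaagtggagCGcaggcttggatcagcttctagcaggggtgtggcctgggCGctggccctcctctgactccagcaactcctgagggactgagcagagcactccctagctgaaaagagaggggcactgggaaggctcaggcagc
The Duoxa2 run holds 19 CpGs, that of Zc3h12d 10, that of Slfn14 1 and that of Adipoq 0, beside a median of 15 over 15671 promoters of autosomal protein-coding genes. The letters TATAAA, searched on both strands, occur in the Duoxa2 run and in 12.9% of all those promoters. They are not in the other 3 windows. The table of promoters matched 77 of the 104 members (74.0%), so base composition was not compared over the set.

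In untreated cells the members together gave 99 counts out of 143769821, and 36 members had 0, 37 had 1 and 31 had 2. In RPB1-depleted cells their sums ran from 20 to 140 counts with a median of 32, every member had counts in both libraries, and 83 had 10 or more in each. The members were chosen by these untreated and RPB1-depleted counts, which are given as a description. The 2 RPB1 libraries differed over the members by no more than counting noise (chi-square per member 0.966). Members at the threshold with 20 counts included S100a3, Tnf and Ankk1, and silent genes just below it with 19 included Gm8773, H2al2a and Spink4.

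Summed over the set, the level was 2.01 and 0.423 CPM (counts scaled to the total of the library) in untreated RPB1 cells and 457 and 464 CPM after 12 h of IAA. The 15 members with the most reads held 31.7% of the members' counts in RPB1-depleted cells. The other 4643 silent genes summed to a mean of 10.2 CPM in untreated RPB1 cells and 589 CPM after IAA, and they held 56.1% of the counts from silent genes in RPB1-depleted cells. Of the 4747, 3266 had 0 counts in both RPB1-depleted libraries. CPM is a share of a library, and amounts per cell were not analysed here.

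Total counts ran from 3399838 to 7164928 per library in the 12 h set and, for the samples at 0 h and 1 h, between 8598431 and 13281252. All 8 pluripotency markers were detected in RPB1 cells, with a summed level of 5728 to 5783 CPM untreated and 3577 to 3647 CPM after IAA. Of the marker lists for other cell types, of 8 genes each, that for mesoderm and muscle went from 3.17 to 3.83 CPM with 4 genes at 0 to 32.0 to 35.8 CPM with 0 at 0. That for blood and immune cells went from 16.9 to 19.9 CPM (3 genes at 0) to 42.4 to 44.3 CPM (1 at 0), that for germ cells from 29.8 to 30.01 CPM (3 at 0) to 56.6 to 57.0 CPM (1 at 0), that for keratinocytes from 2.62 to 3.38 CPM (2 at 0) to 8.44 to 13.9 CPM (2 at 0), and that for endoderm and liver from 4.01 to 4.23 CPM (5 at 0) to 9.85 to 11.3 CPM (1 at 0). The lists for fibroblasts (208 to 209 CPM, then 107 to 111), neurons (203 to 207, then 166 to 178) and trophectoderm (133 to 138, then 116.8 to 124.1) did not move up. Alb is the only marker of these lists that is a member, and the part of other cell types in the results was not tested.

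The members with the most reads have roles in unrelated tissues. Slfn14, a Schlafen-family endoribonuclease, had 71 and 69 counts in the 2 RPB1-depleted libraries and 2 counts in all untreated libraries. Duoxa2, the maturation factor of the dual oxidase Duox2, had 57 and 56, and Cyp24a1, the enzyme that inactivates vitamin D, had 51 and 57. Trpv1, the capsaicin-gated cation channel of sensory neurons, had 50 and 49. In each of these 4 the 2 RPB1-depleted libraries gave similar counts. Lrrc43, a leucine-rich repeat gene, had 48 and 50, and Adipoq, which encodes the fat-cell hormone adiponectin, had 45 and 53. Ccrl2, a chemokine receptor-like protein, had 37 and 54, and Zc3h12d, a CCCH zinc finger gene of the Regnase family, 51 and 36. Neurod2, a basic helix-loop-helix factor of neurons, had 36 and 48 with 0 counts in all untreated libraries. The same held for Nepn (35 and 38), Ankrd7 (38 and 33), Nr1h5 (the nuclear receptor FXR beta, 41 and 27) and Gja10 (a gap junction connexin, 33 and 32). Among the 104 the replicate 1 to replicate 2 ratio of CPM ran from 0.426 to 2.81 with a median of 0.934.

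Levels between genes were compared per kilobase of exon. On that scale the RPB1-depleted level ran from 0.214 to 6.76 CPM per kb with a median of 1.25. Duoxa2 (6.76 CPM per kb) and Adipoq (6.75) were highest, followed by 2010003K11Rik (6.29), Ankrd7 (5.67) and the embryonic globin gene Hba-x (4.58). Slfn14, first by counts, had 3.60 CPM per kb and stood ninth.

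The first comparison asks whether the same genes gave reads when other subunits were lost, in libraries that the rule did not use. All 104 members had at least 1 count in some other IAA library. The summed level was 121 and 133 CPM in RPB5, 72.4 and 71.2 in RPB8, 34.9 and 44.1 in RPB3, and 17.2 and 16.3 in RPB2. It was 11.1 and 12.0 CPM in RPB7, 8.39 and 13.6 in RPB9, 6.39 and 6.31 in RPB11, 5.51 and 4.64 in RPB10 and 4.64 and 3.997 in RPB6. In WT with IAA it was 3.31 and 2.29 CPM, in RPB12 1.88 and 1.21, and in RPB4 0.431 and 1.43. The RPB5, RPB8, RPB3 and RPB2 libraries thus do not overlap with each other, RPB7 and RPB9 overlap, RPB10 and RPB6 overlap at 4.64 CPM, and RPB12 and RPB4 lie below WT. No untreated library exceeded 2.01 CPM, a level that the rule itself kept low.

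**Figure D1:**
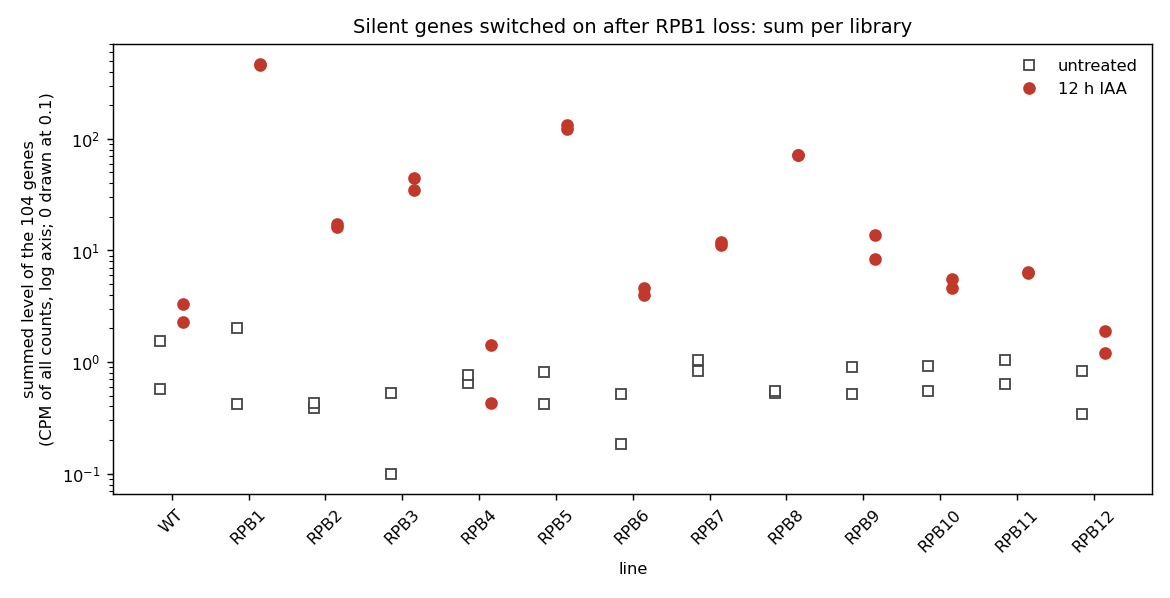
Summed level of the 104 genes (CPM of all counts, log axis) in each library of WT and the 12 degron lines, untreated (open squares) and after 12 h of IAA (filled circles), with 1 point per library and a library at 0 drawn at 0.1. RPB1 was used to choose the genes; of the others, RPB5 (121 and 133 CPM), RPB8 (72.4 and 71.2) and RPB3 (34.9 and 44.1) are highest.

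The share of members with any count followed the same order only in part. A count was found for 98 members in RPB5, 90 in RPB3, 71 in RPB8, 48 in RPB2, 47 in RPB9, 44 in RPB7, 41 in RPB11, 28 in RPB10, 27 in RPB6, 19 in WT, 16 in RPB12 and 8 in RPB4. RPB3 therefore spread fewer reads (427 counts) over more members than RPB8 (518 counts), at different depths. Of the silent genes, 21 reached 20 or more counts in RPB5 and 14 of these were among the 104. In RPB8 it was 9 with 7 among the 104, in RPB3 1 of 1, in RPB7 2 with 0, and in RPB2 1 with 0. Relative to WT with IAA, the members' mean level was 45.4 times as high in RPB5 and that of the other silent genes 8.995 times as high. The 2 factors were 25.6 and 5.52 in RPB8, 14.1 and 4.07 in RPB3, 5.99 and 2.85 in RPB2 and 1.54 and 1.01 in RPB6. All of these ratios share the WT libraries.

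Single members were tested with edgeR's quasi-likelihood test in 1 fit of 52 libraries, each line with IAA against WT with IAA, and a member counts as risen or fallen if its Benjamini-Hochberg adjusted p over all 17928 genes was under 0.05. Of the 104, 92 passed the filter on low counts, and Endou, Il5, Ptx4, Ceacam15, 4930438A08Rik, Ctrb1, Map3k7cl, Pax4, Tnf, Usp18, Ankk1 and S100a3 were not tested. The filter ran over all 52 libraries, including the RPB1 pair that chose the genes, and most members passed through that pair alone. Filtered on the 4 libraries of a comparison, 12 members were tested in RPB5 and 6 in RPB8, and 0 in any other line against WT. All of those tested rose. With WT at or near 0, they passed that filter only through the libraries where they were high, so a rise was largely set in advance. The counts of members that rose are therefore a description of these 92 and support nothing about the set. In RPB5, 46 of the 92 rose and 0 fell, beside 32.1% of all genes tested that rose and 29.4% that fell. In RPB8, 28 rose (32.6% of all genes), in RPB3 24 (26.3%), in RPB2 13 (27.9%), in RPB7 8 (30.5%), in RPB9 7 (22.3%), in RPB11 1 (19.9%) and in RPB6 1 (27.7%). In RPB4, RPB10 and RPB12 0 rose, where 15.5%, 24.9% and 21% of all genes did, and at an unadjusted p under 0.05 the counts were 0, 1 and 0. The share of members that rose was 50% in RPB5, 30.4% in RPB8 and 26.1% in RPB3. The last 2 lie near the share over all genes. Without either WT library 29 of 92 rose in RPB5. The share over all genes in that fit is not given here, so the 50% is not read as an excess. In none of the 11 lines did a member fall, where 38.9% of all genes fell in RPB2, 25.8% in RPB3, 15.5% in RPB4, 37.1% in RPB6, 31.1% in RPB7, 32.3% in RPB8, 22.4% in RPB9, 25.5% in RPB10, 20% in RPB11 and 22.1% in RPB12. A level at or near 0 in WT leaves no room for a fall. All 11 comparisons share the WT libraries.

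Most members had 0 counts in both WT libraries, and the calls on small counts depended on them. Without 1 WT library, either of the 2, 29 members rose in RPB5, 3 in RPB3, 3 in RPB7, 1 in RPB9 and 0 in RPB6 and RPB11; in RPB2 it was 8 without WT replicate 1 and 7 without replicate 2. Without RPB3 replicate 2 it was 10 in RPB3, without either RPB7 library 5, without either RPB9 library 4, without RPB6 replicate 2 or either RPB11 library 0. With DESeq2, 11 rose in RPB5, 6 in RPB8, 2 in RPB3, 4 in RPB2, 3 in RPB9 and 0 in RPB4, RPB6, RPB7, RPB10, RPB11 and RPB12. Scaled to mitochondrial mRNAs, 35 rose in RPB3, 31 in RPB5, 15 in RPB8, 1 in RPB2 and 0 in RPB6, so that RPB3 came before RPB5, and scaled to total counts 6 in RPB2 and 0 in RPB6. The shares over all genes in these and later alternative fits are not given here. A changed count or order of lines is therefore not read as a result about the members. The calls that held whichever 1 library was left out were 24 in RPB5, 14 in RPB8, 4 in RPB2, 2 in RPB3, 2 in RPB7 and 1 in RPB9, and the paragraphs on single lines below name genes from these unless said otherwise.

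In RPB5, Zc3h12d had 54 and 53 counts where the WT libraries with IAA had 0, at least 36.7-fold higher (adjusted p = 1.36e-10). The floor for a group without a count was 3 counts over its 2 libraries. Myh15, a myosin heavy chain gene, had 29 and 37 counts against 0 (at least 22.7-fold, adjusted p = 2.99e-08), and the gene 4933421I07Rik 32 and 31 against 0 (at least 21.6-fold, adjusted p = 2.08e-07). Both libraries of RPB5 lay far above both of WT for these 3, and with DESeq2 the adjusted p of 4933421I07Rik was 0.123. Il31, a cytokine of activated T cells, had 30 and 29 counts against 0 (at least 20.3-fold, adjusted p = 6.08e-08). Lrrc43 had 27 and 23 against 0 (at least 17.2-fold, adjusted p = 4.62e-08), and Lman1l, a lectin-type cargo receptor gene, 31 and 18 (at least 16.8-fold, adjusted p = 1.42e-07). Il31 and Lrrc43 are neighbours on opposite strands of chromosome 5 whose annotated starts overlap by 184 bases, so without a stated strand setting their reads cannot be told apart there. Tas1r2, the sweet taste receptor subunit, had 31 and 20 counts against 1 and 0, a ratio of 52.5 with a 95% counting interval of 9.01 to 2115 (adjusted p = 5.95e-07). Avpr1b, the vasopressin receptor of the pituitary, had 23 and 15 counts against 0 (at least 13.05-fold, adjusted p = 1.97e-06). By summed counts, at unequal depth, 6 members had more in RPB5 than in RPB1: Zc3h12d, Myh15, 4933421I07Rik, Il31, Tas1r2 and Avpr1b.

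In RPB8 the members with the most counts were Fgb, Zc3h12d and Duoxa2. Fgb, the fibrinogen beta chain of liver, had 24 and 30 counts where WT had 0, at least 27.0-fold higher (adjusted p = 8.42e-08). Zc3h12d had 27 and 18 against 0 (at least 22.5-fold, adjusted p = 1.81e-08). Hba-x had 14 and 15 against 0 (at least 14.5-fold, adjusted p = 1.47e-05). Duoxa2 had 19 and 16 counts against 1 and 0, a ratio of 52.6 with a counting interval of 8.83 to 2135 (adjusted p = 5.17e-06). Trim30b, of the tripartite motif family, had 9 and 16 against 0 (at least 12.5-fold), and Ankrd7 and Nepn had 14 and 9 each (at least 11.5-fold for both). By summed counts, at unequal depth, Fgb was the 1 member with more in RPB8 (54) than in RPB1 (25 and 19). In TMM-scaled CPM it was the 1 member with both RPB8 libraries above both of RPB1. With DESeq2, Zc3h12d, Duoxa2, Ankrd7, Avpr1b and Ccrl2 passed, while the adjusted p of Fgb was 0.136, that of Hba-x 0.582 and that of Trim30b 0.593.

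In RPB3 the counts were small and spread over many members. Mfsd4b3, of the major facilitator family, had 15 and 10 counts against 0 in WT, at least 6.53-fold higher (adjusted p = 0.000496), and Mfsd13b, of the same family, 5 and 7 (at least 3.13-fold, adjusted p = 0.00492). Rnf186, a RING finger gene, had 3 and 14 counts (at least 4.44-fold, adjusted p = 0.00323), a call that ended without 1 library. In RPB2, Zc3h12d had 6 and 1 counts against 0 (adjusted p = 0.00118, a call that ended without 1 library), Pigr, the polymeric immunoglobulin receptor, 2 and 4 (at least 4.64-fold, adjusted p = 0.0016) and Alb, serum albumin, 3 and 2 (at least 3.87-fold, adjusted p = 0.00692). Pigr and Alb did not pass with DESeq2 (adjusted p = 0.139 and 0.435) or scaled to mitochondrial mRNAs (0.0781 and 0.111). In RPB7, Mfsd13b had 8 and 5 counts and Trhr2, a receptor of thyrotropin-releasing hormone, 4 and 6, both against 0 in WT. With DESeq2 the adjusted p of Mfsd13b was 0.0951 in RPB3 and 0.0682 in RPB7, and that of Trhr2 in RPB7 0.298. In RPB9, Lman1l had 5 and 7 against 0 (adjusted p = 0.00496). The 1 call in RPB6 was Hba-x (1 and 4 counts) and that in RPB11 Mfsd4b3 (4 and 5 counts), and both ended without 1 library. Values of 5 counts or fewer in a library show that reads were found and little about their number.

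**Figure D2:**
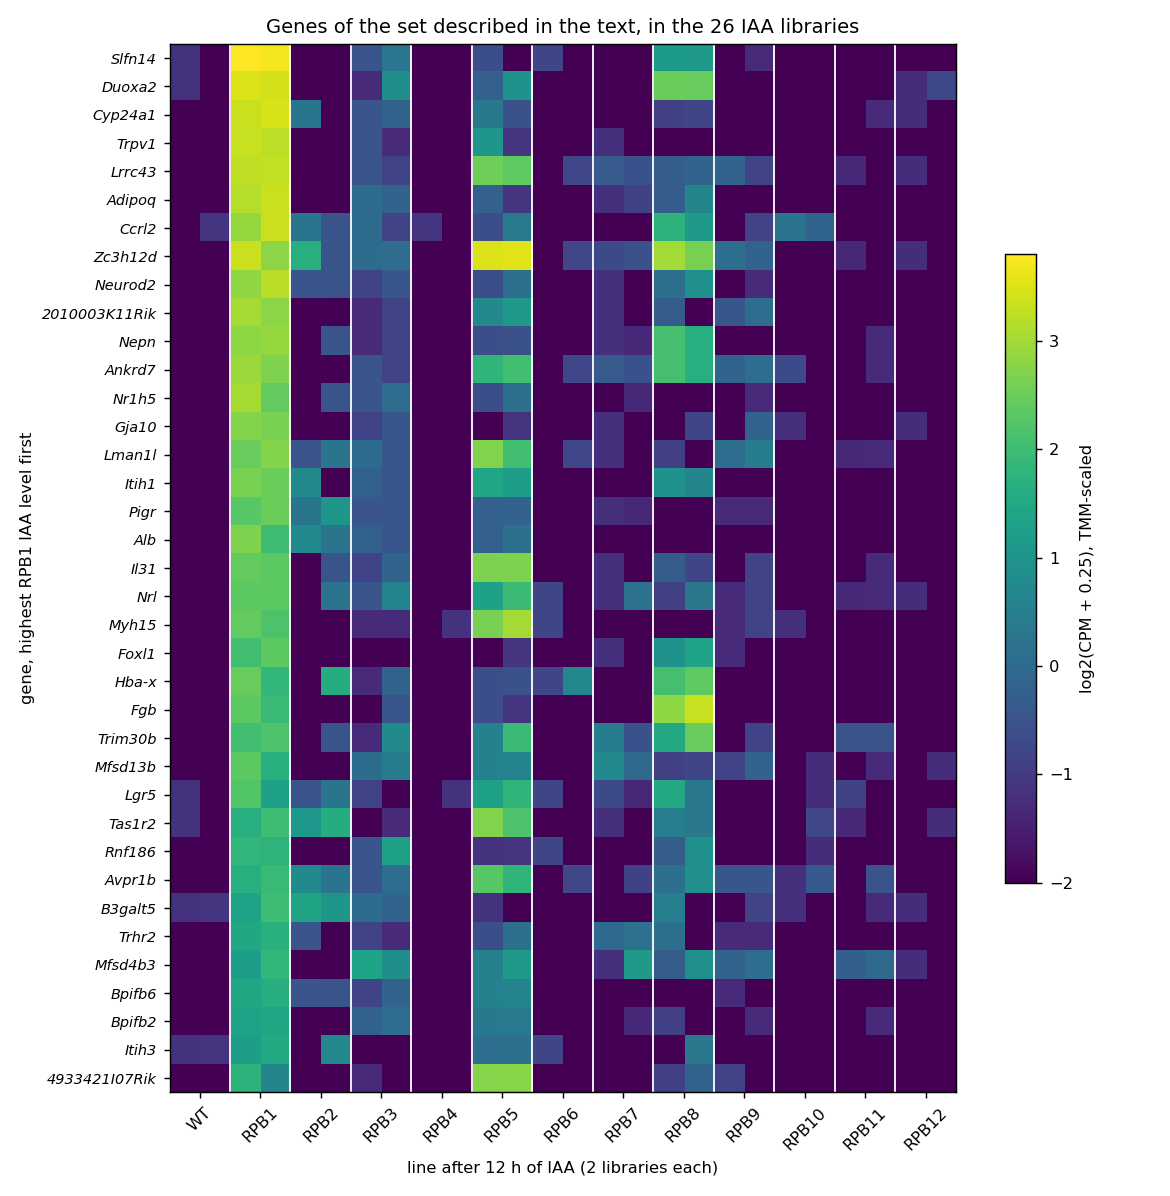
Level of members described in the text (rows, highest mean CPM in RPB1-depleted cells first) in the 26 IAA libraries of the 12 h set (columns, 2 per line), as log2(CPM + 0.25) scaled with TMM. Beyond the RPB1 columns that chose the genes, Zc3h12d, Lrrc43, Il31, Lman1l and Myh15 stand out in RPB5, and Fgb, Zc3h12d, Duoxa2 and Hba-x in RPB8.

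Counting lines in which a member rose, 32 of the 92 rose in none of the 11 lines, 24 in 1, 19 in 2, 7 in 3, 7 in 4, 1 in 5 and 2 in 6. Zc3h12d rose in RPB2, RPB3, RPB5, RPB7, RPB8 and RPB9, and Mfsd4b3 in RPB3, RPB5, RPB7, RPB8, RPB9 and RPB11. Lrrc43 rose in RPB3, RPB5, RPB7, RPB8 and RPB9. Of these calls, those of Zc3h12d in RPB5 and RPB8, of Mfsd4b3 in RPB3 and RPB5 and of Lrrc43 in RPB5 held whichever 1 library was left out, and the others ended without 1 library. By counts of any size, 4 members had at least 1 in 9 of the 11 other lines: Zc3h12d, Nrl (a transcription factor of rod photoreceptors), Lgr5 (a receptor of intestinal stem cells) and Avpr1b. Among members with many counts in RPB1, Trpv1 (50 and 49), Gja10 (33 and 32) and Nr1h5 (41 and 27) had few elsewhere: Trpv1 had 9 and 1 in RPB5, Gja10 0 and 1, and Nr1h5 2 and 4, and in RPB8 the 3 genes had 0, 1 and 0 counts in all.

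Lines were next compared with each other. RPB5 against RPB2, the lines at 121 to 133 and at 16.3 to 17.2 CPM, had 23 members higher in RPB5 and 1 lower (40.5% and 29.4% of all genes tested). Myh15 (29 and 37 counts against 0), 4933421I07Rik (32 and 31 against 0) and Lrrc43 (27 and 23 against 0) were at least 9.76, 9.31 and 7.39-fold higher in RPB5. The 1 member that was lower, B3galt5, a galactosyltransferase gene, had 1 and 0 counts in RPB5 and 5 and 4 in RPB2 (ratio 0.0493, counting interval 0.00112 to 0.356, edgeR adjusted p = 0.00372). Without RPB2 replicate 1 or 2 the count of higher members was 13 and 12, scaled to total counts 36, to mitochondrial mRNAs 43, and with DESeq2 3. Of all 24 edgeR calls between RPB5 and RPB2, DESeq2 kept 3. RPB8 against RPB6 had 21 members higher and 0 lower (32.4% and 30.1% of all genes), with Fgb (24 and 30 against 0), Duoxa2 (19 and 16 against 0) and Trim30b (9 and 16 against 0) at least 16.4, 10.6 and 7.59-fold higher. Without RPB6 replicate 1 or 2 the count was 13 and 12, and with DESeq2 4. In both comparisons the share of members that were higher was below the share of all genes.

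RPB5 and RPB8, the lines with the highest levels after RPB1, were compared member by member. Of the 92, 19 were higher in RPB5 and 8 in RPB8 (24.5% and 24.6% of all genes tested). Myh15 had 29 and 37 counts in RPB5 and 0 in both RPB8 libraries, at least 15.1-fold higher in RPB5 (edgeR adjusted p = 5.13e-07). Lman1l had 31 and 18 counts in RPB5 and 1 and 0 in RPB8, a ratio of 33.6 with a counting interval of 5.76 to 1354. Il31 had 30 and 29 against 2 and 1, a ratio of 13.5 (4.396 to 67.3). In the other direction, Fgb had 2 and 1 counts in RPB5 and 24 and 30 in RPB8, a ratio of 0.0381 (0.00762 to 0.117, adjusted p = 1.53e-06). Hba-x had 2 and 2 against 14 and 15 (ratio 0.0946), Foxl1, a forkhead factor, 0 and 1 against 6 and 7 (0.0528), and Slfn14 2 and 0 against 7 and 6 (0.106, a call that ended without 1 library). These 7 genes were named from called members with large differences, and each had few or no counts in 1 of the 2 lines. That their groups did not overlap was largely set by this choice and adds no support. Without RPB5 replicate 2 the count of members higher in RPB5 was 10, without RPB8 replicate 1 or 2 it was 9 and 10, and with DESeq2 it was 2, Lrrc43 and Lman1l. DESeq2 kept none of the 8 calls higher in RPB8, Fgb, Hba-x, Foxl1 and Slfn14 included, and it did not call Myh15 or Il31. Zc3h12d did not pass this test: it had 54 and 53 counts in RPB5 and 27 and 18 in RPB8.

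**Figure D3:**
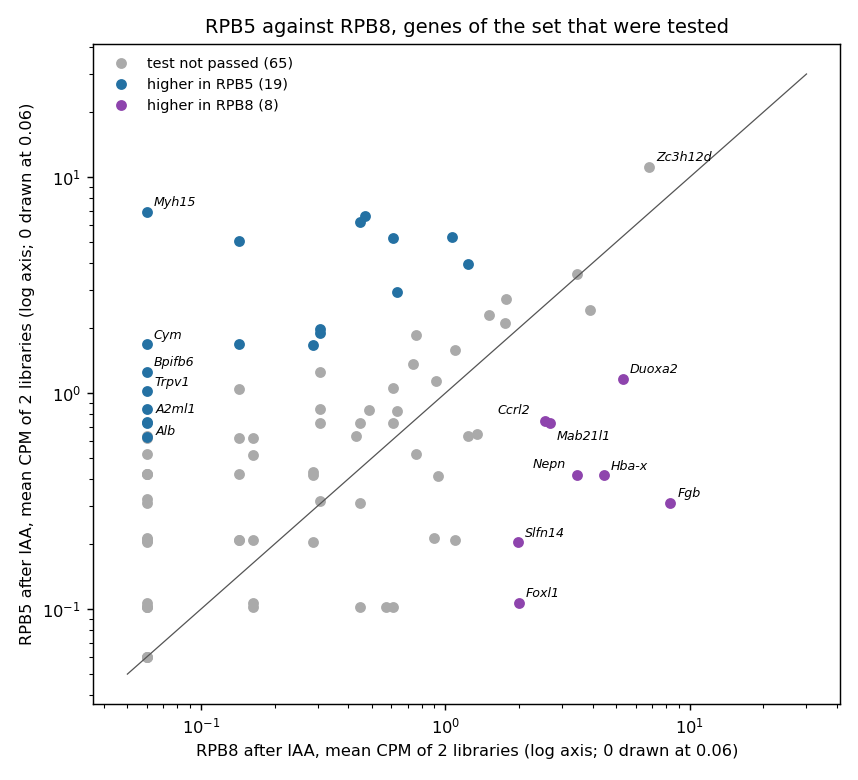
Mean level of the 92 tested members in RPB8 (x axis) and RPB5 (y axis) after 12 h of IAA, in TMM-scaled CPM on log axes with 0 drawn at 0.06 and the line of equal level in grey. Points are coloured by the edgeR test of RPB5 against RPB8: 19 members higher in RPB5, 8 higher in RPB8 and 65 that did not pass.

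After 1 h of IAA the summed level of the set was 7.85 and 8.16 CPM in RPB1, against 2.79 and 4.07 CPM at 0 h. In RPB3 it was 5.74 and 4.89 CPM at 1 h and 2.58 and 2.18 at 0 h, and in RPB6 4.41 and 4.88 at 1 h and 4.71 and 5.55 at 0 h. The 2 time points did not overlap in RPB1 and RPB3 and did in RPB6. The other silent genes also rose in RPB1 and RPB3, so a rise at 1 h was not particular to the set. Their mean sum was 26.5 CPM at 0 h and 38.7 at 1 h in RPB1, and 23.0 and 35.3 in RPB3. In RPB6 it was 64.7 and 64.1. None of the 104 passed the filter on low counts in the fit of these 12 libraries, so 0 members were tested in any of the 3 lines (of all genes, 11% rose and 13.9% fell at 1 h in RPB1; for RPB3 the shares were 0.00639% and 0.351%, for RPB6 0.939% and 0.6%). Without the filter, edgeR called 1 member in RPB1: Lman1l had 0 and 0 counts at 0 h and 7 and 6 at 1 h, at least 4.03-fold higher (adjusted p = 0.0156). Most others had 0 to 3 counts a library, and Rnf186 went from 2 and 1 to 4 and 5 in RPB1 and from 3 and 1 to 7 and 5 in RPB3. The 0 h libraries, at 2.18 to 5.55 CPM, lay above every untreated library of the 12 h set. The rule capped the untreated counts and did not use the 0 h libraries. This order was therefore favoured in advance and says nothing about a difference between the sets of libraries.

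By class, members were few among the large families of silent genes. Olfactory receptors made up 1048 of the 4747 silent genes and held 1 member, Olfr1419, and 890 of them had 0 counts in RPB1-depleted cells. All 1048 together summed to 53.3 and 42.6 CPM in RPB1-depleted cells, 18.2 and 19.9 CPM in RPB5 and 0.662 and 1.60 CPM in WT with IAA. Vomeronasal, taste and trace amine receptors held 1 member (Tas1r2) of 351 silent genes, keratins and keratin-associated proteins 0 of 87, defensins 0 of 59 and solute carriers 0 of 51. Genes with model names such as Gm or Rik held 8 of 934. The share over all silent genes was 2.19%.

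Developmental transcription factors, on few genes, held more than the 2.19% over all silent genes. So did non-sensory G protein-coupled receptors (4.39%), cytokines and chemokines (4.48%), cytochrome P450 enzymes (3.64%) and collagens and extracellular proteases (5.26%), while ion channels (2.08%) lay just below. The 2.19% is lowered by the large sensory receptor and model-name classes, so a class somewhat above it need not stand out. Zinc finger Zfp and Zscan genes held 0 of 11. Forkhead, Sox, T-box, GATA and Zic factors held 2 members (Foxl1, Foxi1) of 12 silent genes and homeobox factors outside the Hox clusters 2 (Lhx1, Pax4) of 18. The basic helix-loop-helix factors held 1 (Neurod2) of 12. The 12 silent genes of the forkhead group summed to 10.7 and 14.8 CPM in RPB1-depleted cells, 4.72 and 7.06 CPM in RPB8, 2.41 and 4.22 CPM in RPB5 and 0 CPM in both WT libraries with IAA. G protein-coupled receptors other than the sensory ones held 5 of 114: C3ar1 and C5ar1, the receptors of the complement peptides C3a and C5a, Avpr1b, Gpr176 and Trhr2. Their 114 silent genes summed to 53.1 and 58.3 CPM in RPB1, 32.2 and 32.1 in RPB5 and 13.1 and 9.71 in RPB8. Cytokines and chemokines held 3 of 67: Il31 (26 and 26 counts in RPB1), Il5 (17 and 8) and Tnf (8 and 12). Cytochrome P450 enzymes held 2 of 55 (Cyp24a1, Cyp3a57). In all, 32 members fell in 1 of the 18 classes and 72 in none, and no class difference was tested.

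The surroundings of the members were compared with those of other silent genes, as a description with no test. An expressed gene, at 5 CPM or more in untreated RPB1 cells, lay within 100 kb of 96 of the 104 members (92.3%), of 34.0% of the other 4643 silent genes and of 75.1% of all autosomal protein-coding genes. Without receptor families and model-name genes, 43.7% of 2320 other silent genes had one. The number of genes of any kind within 100 kb was much the same, with a median of 10 for members and 9 for other silent genes. The median number of expressed genes was 3 for members, 0 for other silent genes and 2 for all genes. The 8 members without an expressed gene within 100 kb were Cd93, Foxi1, Cd300e, Bpifb6, Bpifb2, Cntnap4, Ifi47 and Mab21l1, with 20 to 33 counts in RPB1-depleted cells.

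The shares were higher for members on either strand and on either side of the gene. An expressed gene lay within 100 kb upstream on the same strand of 53 members (51.0%) and 12.9% of other silent genes, and upstream on the opposite strand of 69 members (66.3%) and 12.6%. Downstream it was 50 members (48.1%) and 14.3% on the same strand, and 45 (43.3%) and 16.7% on the opposite strand. Within 5 kb upstream on the same strand it was 2 members, Tas1r2 and H2-DMb2 (1.92%, against 0.84% of other silent genes), and within 20 kb 14 members (13.5%, against 3.17% of other silent genes). An expressed gene overlapped 1 member on the same strand (0.962%, against 2.54% of other silent genes) and 2 on the opposite strand (1.92%, against 1.62%).

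**Figure D4:**
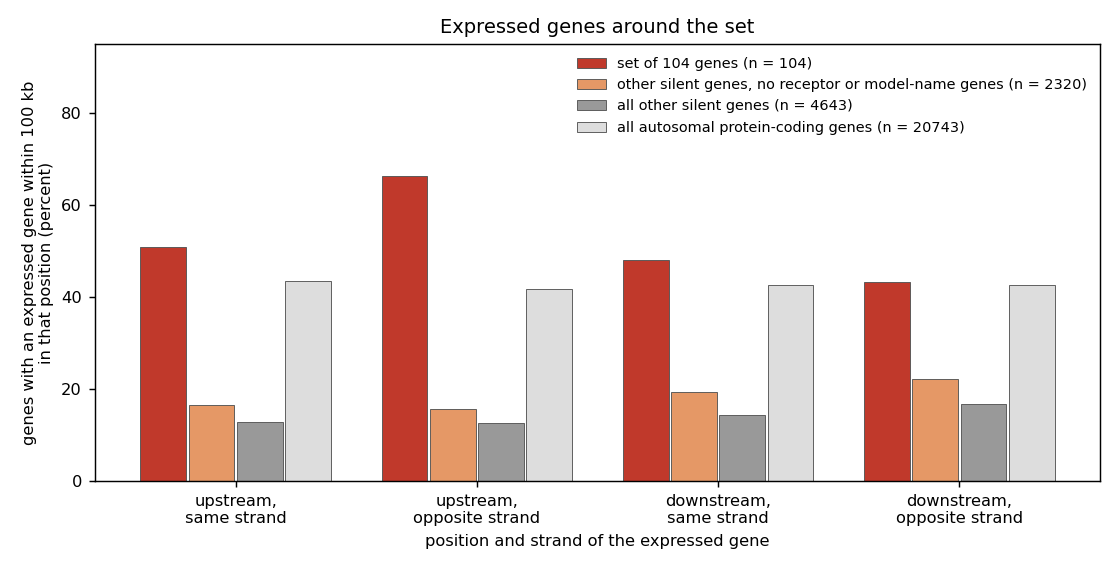
Share of genes (percent) with an expressed gene (5 CPM or more in untreated RPB1 cells) within 100 kb, by its side and strand relative to the gene, for the 104 members, for the other silent genes with and without receptor and model-name genes, and for all autosomal protein-coding genes. The members lie between 43.3% and 66.3% in the 4 positions and all other silent genes between 12.6% and 16.7%.

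The share of silent genes in the set was higher with more expressed genes nearby, up to the class of 4 to 6. It was 8 of 3074 (0.26%) with 0 expressed genes within 100 kb, 18 of 740 (2.43%) with 1, 35 of 611 (5.73%) with 2 to 3, 32 of 215 (14.9%) with 4 to 6, and 11 of 107 (10.3%) with 7 or more. Libraries that the rule did not use are given over all 4747 silent genes. Per 1000 silent genes, the RPB5 libraries held 14.4 and 15.5 CPM with 0 expressed genes nearby, 98.1 and 108 with 1, 208 and 232 with 2 to 3, 337 and 377 with 4 to 6, and 314 and 315 with 7 or more. The RPB8 libraries held 13.8 and 16.8 CPM with 0, 79.7 and 81.1 with 1, 115 and 103 with 2 to 3, 184 and 164 with 4 to 6, and 76.0 and 88.0 with 7 or more, so the last class lay below that of 2 to 3. In WT with IAA the level was 3.66 and 2.46 CPM with 0, 11.03 and 6.19 with 1, 15.2 and 13.5 with 2 to 3, 9.23 and 19.2 with 4 to 6, and 20.6 and 15.0 with 7 or more. The class with 0 was the lowest in WT too, and the others had no common order in its 2 libraries.

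**Figure D5:**
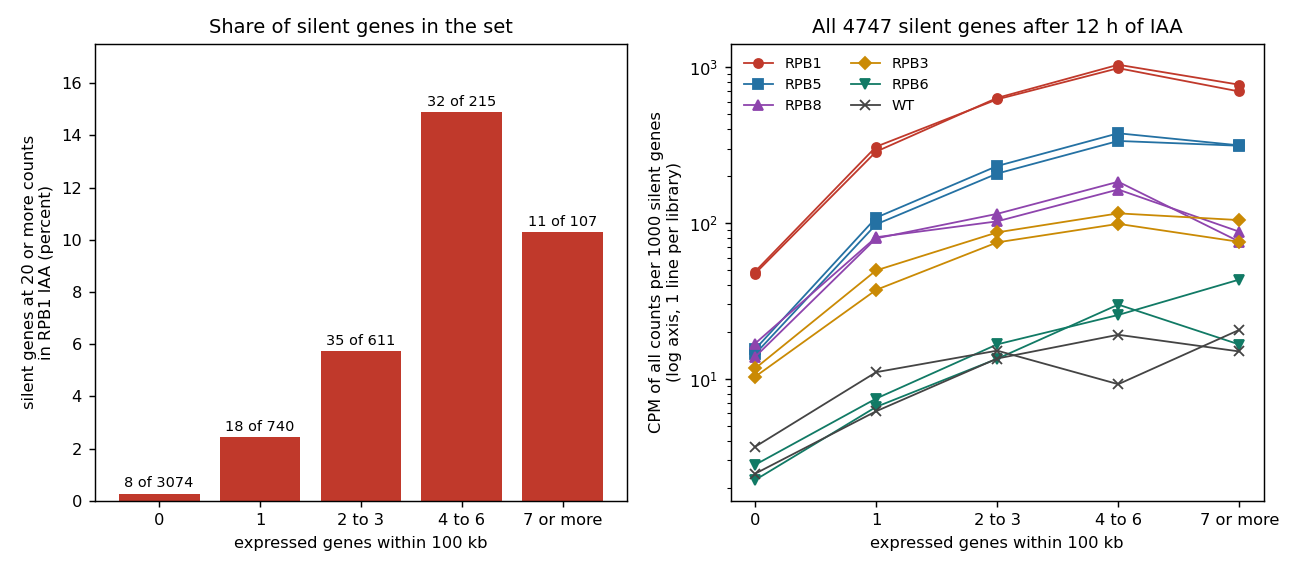
Left, the share of the 4747 silent genes that belong to the set, by the number of expressed genes within 100 kb, with the counts above the bars. Right, the summed level of all silent genes in each class per 1000 genes (CPM of all counts, log axis, 1 line per library) after 12 h of IAA; with 4 to 6 expressed neighbours the RPB5 libraries are at 337 and 377 CPM and with 0 at 14.4 and 15.5.

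Members had longer transcripts and more exons than other silent genes. Their median exonic length was 2518 bases, against 2082 in the other silent genes and 3570 in all genes, and the median number of exons was 6, 4 and 7. Single-exon genes made up 4.81% of members, 12.5% of other silent genes and 5.52% of all genes. The median GC content of the longest coding transcript was 50.5% in members, 43.6% in other silent genes and 49.3% in all genes. Without receptor and model-name genes the other silent genes had 46.8%. A longer gene reaches 20 counts more easily at the same level per length.

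Chromosome 11 held 15 members of 270 silent genes (5.56%), chromosome 2 held 11 of 530 (2.08%) and chromosome 7 held 11 of 672 (1.64%). Several members lay beside each other. The inter-alpha-trypsin inhibitor heavy chain genes Itih1 (31 and 29 counts in RPB1) and Itih3 (11 and 14) lie 5.42 kb apart on chromosome 14, and Bpifb2 (12 and 13) and Bpifb6 (13 and 15) 5.12 kb apart on chromosome 2. In RPB5 both Bpifb genes rose, with 5 and 5 and 6 and 6 counts against 0 in WT (edgeR adjusted p = 0.0038 and 0.00165, with DESeq2 0.463 and 0.417). Of the Itih genes Itih1 rose in RPB5 (12 and 10 counts against 0, at least 7.55-fold, DESeq2 adjusted p = 0.194), and Itih3 had 4 and 4 counts against 1 and 1. The interferon-inducible GTPase gene Ifi47 and Gm12185 lie 84.4 kb apart on chromosome 11.

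The nearest tested genes around the members, which did not enter the rule, were compared between IAA and untreated RPB1 cells. Of 167 such neighbours within 100 kb, 78 rose (46.7%) and 44 fell (26.3%), beside 35.8% and 30.5% of all 17928 genes tested. Around the other silent genes, 34.0% of 1801 neighbours rose and 28.8% fell. The median log2 fold change was 0.44 around members, 0.07 around other silent genes and 0.09 over all genes. Scaled to total counts, 29 neighbours fell in place of 44, and scaled to mitochondrial mRNAs 54 rose and 56 fell.

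The clearest neighbour lay next to Duoxa2. Duox2, the dual oxidase that Duoxa2 helps to mature, lies 451 bases away on the opposite strand, and the bases before the start of Duoxa2 printed above lie in that gap. Duox2 stood at 0.200 and 0.210 TMM-scaled CPM in untreated RPB1 cells and at 68.2 and 65.5 CPM after IAA (log2 fold change 8.19 ± 0.36 SE, edgeR adjusted p = 6.48e-23). Duoxa1, which overlaps Duoxa2 from the other side on the opposite strand, also rose (4.68, adjusted p = 1.25e-10), so 3 adjoining genes gave reads. Duoxa2 had its most counts outside RPB1 in RPB8, and Duox2 stood at 11.4 and 10.4 CPM in RPB8, 7.73 and 7.72 in RPB5, 1.56 and 1.94 in RPB3, 0.812 and 0.482 in RPB9 and 0.675 CPM or less in RPB2, RPB4, RPB6, RPB7, RPB10, RPB11, RPB12 and WT with IAA. Without a stated strand setting, reads over the overlap of Duoxa1 and Duoxa2 cannot be told apart.

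Other neighbours moved in either direction. Btg2, an antiproliferative gene 26.9 kb from Fmod, went from 8.81 and 7.98 to 196 and 179 CPM (log2 fold change 4.47 ± 0.14). Slc16a10, an amino acid transporter gene 73.4 kb from Mfsd4b3, went from 3.00 and 2.94 to 34.1 and 37.0 CPM (3.57 ± 0.21), and Shpk, sedoheptulokinase, 9.78 kb from Trpv1, from 2.60 and 1.47 to 24.6 and 25.8 CPM (3.61 ± 0.24). Trim6, 54.0 kb from Olfm5, fell from 244 and 246 to 81.7 and 81.7 CPM (-1.58 ± 0.10). Foxc2, 9.04 kb from Foxl1 on the same strand, rose (5.60 ± 0.50), and Btnl9, 68.6 kb from Ifi47, rose (7.53 ± 0.49). Both directions also occurred among the closest expressed genes upstream on the same strand. Upstream of H2-DMb2, which encodes a chain of the MHC class II peptide loader, H2-DMa, its partner 4.21 kb away, rose (1.58 ± 0.22). Aldh4a1, 3.85 kb upstream of Tas1r2, rose as well (0.95 ± 0.14). Csk, 5.87 kb upstream of Lman1l, fell (-0.86 ± 0.13), and Ppil4, 9.34 kb upstream of Zc3h12d, fell (-0.26 ± 0.12, edgeR adjusted p = 0.0482). These changes are those in RPB1, and any link between a neighbour or upstream gene and a member was not tested. In WT with IAA, Slc16a10 stood at 6.38 and 8.04 CPM and Shpk at 1.99 and 1.03. Lman1l and Zc3h12d gave reads in 8 and 9 of the 11 other lines.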

How the data were processed

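The authors deposited gene counts of 64 libraries in tables with one column per library; 4 further columns match no sample and were not used. Per the submitters' processing notes, the tools were STAR, Bowtie2, featureCounts, cutadapt 1.18, DESeq2, deepTools and SAMtools and the builds mm10 and dm6, with no role or order stated. No source used here gives the annotation release, the strand setting or the treatment of multi-mapping reads, so overlapping, antisense and near-identical genes are uncertain. Counts from fly spike-in cells were not analysed here, so CPM are shares of a library. Positions and gene types came from GENCODE M21, promoters from RefSeq (77 of 104 members, 74.0%, so a check of composition over the set is void).

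Counts were tested with edgeR 4.0.16 (quasi-likelihood, TMM scaling, filterByExpr, limma 3.58.1, R 4.3.3) in 1 fit of the 52 libraries of the 12 h set (17928 genes, 26 residual degrees of freedom) and 1 fit of the 12 libraries at 0 h and 1 h (15658 genes, 6 degrees of freedom). Groups were taken from the labels, and p-values were adjusted by Benjamini-Hochberg over all genes tested. For a group at 0 a ratio was taken to 3 counts over both libraries, and intervals are exact 95% intervals that cover counting error only. The procedure was tested on simulated data, with changes planted only in genes with more counts than most members had outside RPB1. That test does not cover calls on members with few counts. Alternatives were DESeq2 1.42.0, other scalings, no filter, only the 4 libraries compared, a replicate term, other thresholds of the set and leaving out each library, where the genes and trended dispersion of the full fit were kept. Python 3.11.15, pandas 2.3.3, numpy 2.4.6, scipy 1.17.1 and matplotlib 3.10.9 were used.

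The members and lists were chosen with earlier results of these data known. Genes were named by rule: the 15 highest in RPB1, the 3 most changed in each direction of each comparison, up to 4 of a class, those with counts in the most lines, those at the threshold, the 5 with the closest expressed gene upstream, and the 5 neighbours with the smallest adjusted p. Other named genes, such as Itih1, Bpifb2, Foxc2 and Btnl9, were chosen after their values were seen. Some results that the rule names are not reported here.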

Additional observations from a re-analysis of the deposited data

Results flagged for a closer look

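Lines with IAA were compared directly with each other by edgeR's quasi-likelihood test. Most of the 92 members passed the filter only through the RPB1 pair that chose them. The counts below therefore describe these members and are no support for a difference between lines over the set. Between RPB5 and RPB2, 23 of 92 members were higher in RPB5 and 1, B3galt5, was lower, beside 40.5% and 29.4% of all genes, and DESeq2 called 3 higher. Between RPB8 and RPB6, 21 members were higher in RPB8 (22.8%, beside 32.4% of all genes), and DESeq2 called 4. Between RPB5 and RPB8, 19 members were higher in RPB5, among them Myh15, Lman1l and Il31, beside 24.5% of all genes. In the same test 8 were lower, among them Fgb, Foxl1 and Hba-x, beside 24.6% of all genes. DESeq2 called 2 higher, Lman1l being 1 of them, and kept none of the 8 lower. None of these shares of members lies above the share of all genes.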

How the results depend on the processing

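Of 200 called results on single members, 80 held whichever 1 library was left out and 0 reversed under any alternative run. DESeq2 kept 35 and lost 157, scaling to mitochondrial mRNAs lost 50, no filter 39, total counts 12 and DESeq2's size factors in edgeR 3. Leaving out 1 library gave 7 to 10 members higher in RPB2 than in WT, 3 to 19 in RPB3, 29 to 38 in RPB5, 0 to 1 in RPB6, 3 to 5 in RPB7, 19 to 22 in RPB8, 1 to 4 in RPB9 and 0 to 0 in RPB4, RPB10, RPB11 and RPB12. It gave 12 to 22 higher in RPB5 than in RPB2, 12 to 20 in RPB8 than in RPB6, 9 to 13 in RPB5 than in RPB8, 71 to 74 neighbours higher and 35 to 37 lower in RPB1, and 0 members at 1 h. DESeq2 called 4 members higher in RPB2, 2 in RPB3, 11 in RPB5, 0 in RPB6, 0 in RPB7, 6 in RPB8, 3 in RPB9, 0 in RPB11, 3 in RPB5 over RPB2, 4 in RPB8 over RPB6 and 2 in RPB5 over RPB8. With mitochondrial mRNAs it was 1 in RPB2, 0 in RPB6, 15 in RPB8 and 43 in RPB5 over RPB2, and with total counts 6, 0 and 36 in RPB2, RPB6 and RPB5 over RPB2, with 29 neighbours lower. With only the 4 libraries compared, 0 members passed the filter in RPB2, RPB3, RPB6, RPB7, RPB9 and RPB11, so 0 were tested there. All that passed were called in RPB5 (12), RPB8 (6), RPB5 over RPB2 (9) and RPB8 over RPB6 (6), and 8 of 15 in RPB5 over RPB8. Apart from RPB5 over RPB8, members passed only through the group where they were high, so those calls were largely set in advance. The same holds in RPB5 over RPB8 for members high in 1 group alone. Examples are Myh15 (29 and 37 counts against 0) and Fgb (2 and 1 against 24 and 30), whereas Zc3h12d (54 and 53 against 27 and 18) was high in both. Without the filter it was 14 in RPB3 and 1 at 1 h in RPB1. For the other changes the cause was not tested, and the shares over all genes under these settings are not given here. The set held 250 genes at 10 or more counts in RPB1, 39 at 40 or more, 36 with 0 untreated counts, 186 with 5 or fewer, and 105 to 121 from 1 RPB1 library. No label ties replicate numbers across groups, and same-numbered deviations correlated from -0.080 to 0.181; a replicate block lost 1 of the 200 calls. With most members at 0 in WT, depth limits what can be said of members with a few counts.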
